A study of Mus musculus with 47 samples.

Results

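Fatty acid oxidation and its control by the peroxisome proliferator-activated receptors (PPARs) were examined through 39 genes in the brainstem and hippocampus of mice. The genes were chosen by symbol, as every row of both count tables whose Ensembl identifier carries the symbol of a listed enzyme, carrier, PPAR or PPAR target. All 39 were found among the 35032 genes of the joined tables. The study fed male C57BL/6 mice a standard chow diet (SD) or a high-fat diet (HFD) from the age of 5 weeks and took the tissue at 12 months. Mice of the transgenic group (TG) carried a transgene under the Thy1 promoter, which drives expression in neurons of the central nervous system. TG mice came from a homozygous colony, and wild-type (WT) mice from a parallel colony founded by the same outcross, so that genotype and colony cannot be told apart. Poly(A)-selected RNA gave 23 libraries of brainstem, 5 of WT_SD and 6 each of WT_HFD, TG_SD and TG_HFD, and 24 of hippocampus, 6 of each group. The tissue called brainstem was the medulla, and the hippocampus was taken whole.

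Mitochondrial fatty acid oxidation starts at the outer membrane, where a carnitine palmitoyltransferase loads an activated fatty acid onto carnitine for transport into the matrix. There a cycle of dehydrogenation, hydration, a further dehydrogenation and thiolysis removes acetyl-CoA units, and electrons pass through the electron transfer flavoprotein to the respiratory chain. PPARs are nuclear receptors that bind fatty acids and switch on genes of this pathway in liver, heart and muscle during fasting or fat feeding. Brain tissue relies mainly on glucose, and its fatty acid oxidation is attributed mostly to astrocytes.

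Levels are given in CPM, the counts of a gene scaled to a common library size with TMM factors over all 47 libraries. Total counts per library ran from 10020784 to 15078812 in brainstem and from 11945971 to 17328447 in hippocampus. A gene was tested where its mean count over the libraries of the fit was at least 50, and was called at an adjusted p of at most 0.05 by edgeR's quasi-likelihood test over all tested genes, with a log2 fold change of 0.3 or more in size. Of the 39 genes, 37 passed that filter in brainstem and 36 in hippocampus. Ppara and Angptl4 passed in neither region, and Ehhadh did not pass in hippocampus. Counts of Thy1, the gene whose promoter the transgene uses, lay between 6402 and 9214 CPM in TG libraries and between 479.6 and 615 CPM in WT libraries, and these ranges parted the libraries as their genotype labels do. Both regions matched their labels in position markers. The 6 hindbrain Hox genes summed to between 20.7 and 129 CPM in brainstem and to at most 0.225 CPM in hippocampus, whereas 7 markers of hippocampal excitatory neurons summed to between 150.1 and 248 CPM in brainstem and to between 2061 and 2502 CPM in hippocampus.

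The comparisons gave 2 main results. None of the tested genes was called for HFD against SD in either genotype or region, where at most 0.0075% of all tested genes were. Of the 37 genes tested between the regions 30 were called, beside 60.2% of all tested genes. They were lower in hippocampus for 26, beside 31% of all genes, and higher for 4, beside 29.2%. The genes lower in hippocampus took in most enzymes of the mitochondrial cycle, with Cpt2 3.17-fold, Hadhb 2.10-fold and Acadl 2.05-fold higher in brainstem. Those higher in hippocampus were Lpl (5.96-fold), Cpt1c (2.67-fold), Acot2 (1.70-fold) and Acot1 (1.59-fold).

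To compare levels between genes, CPM was divided by the length of all annotated exons of a gene, in kb. On this scale Acot7, a cytosolic acyl-CoA thioesterase abundant in brain, was highest in both regions, with a median of 117 CPM per kb in brainstem and 88 in hippocampus. Acsl3, an acyl-CoA synthetase, followed with 58.8 and 46.3 CPM per kb. The fatty acid-binding protein next in order was Fabp5 in brainstem, at 39.6 CPM per kb, and Fabp3 in hippocampus, at 41.4 CPM per kb. These genes bind, activate or release fatty acids outside the mitochondrial cycle. Among the enzymes of the cycle, Acadl was highest in brainstem at 36.7 CPM per kb and in hippocampus at 17.7 CPM per kb. The receptor Ppara (0.418 and 0.436 CPM per kb) and the lipoprotein lipase inhibitor Angptl4 (0.485 and 0.482 CPM per kb) were the lowest in both regions. The length counts every annotated exon, whichever of them the tissue uses, so the order depends on the annotation.

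**Figure D1:**
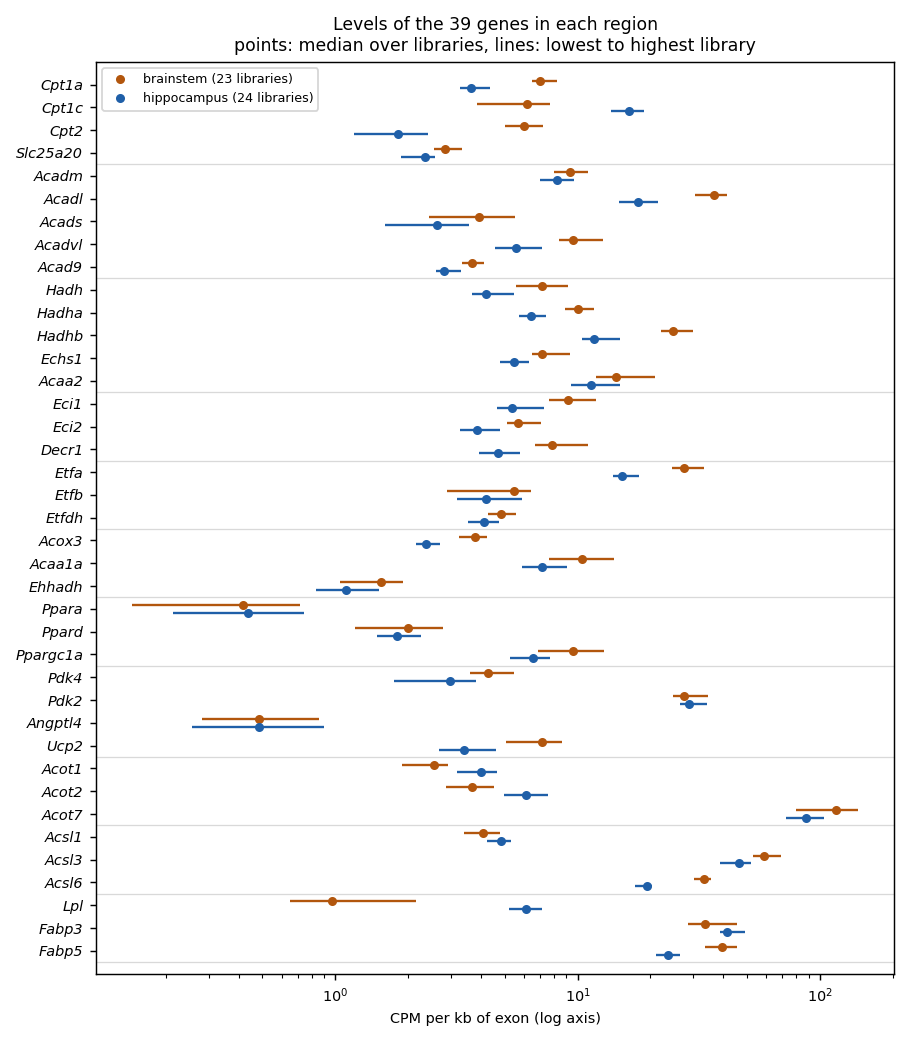
Levels of the 39 genes in brainstem (orange, 23 libraries) and hippocampus (blue, 24 libraries), in CPM per kb of exon on a log axis; points are medians over libraries, lines run from the lowest to the highest library, and grey lines part the groups of genes by role. Acot7 is highest at 117 and 88 CPM per kb and Ppara and Angptl4 are lowest, while Cpt1c and Lpl are the genes whose hippocampal lines lie farthest to the right of the brainstem ones.

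Between the regions, 30 of the 37 tested genes were called, against 60.2% of all 13462 genes tested in the same edgeR fit of 47 libraries. Calls lower in hippocampus took in 26 of the 37 genes against 31% of all genes, and calls higher in hippocampus 4 of the 37 against 29.2%. Among the 26 was Ehhadh, which passed the count filter of this fit only through its brainstem libraries. The median log2 fold change (hippocampus over brainstem) of the 37 genes was -0.52, beside -0.02 over all tested genes. In bulk tissue, fewer cells of a type and less RNA per cell cannot be told apart. Cell type markers differed between the regions as well. The 6 general neuron markers summed to between 4483 and 5217 CPM in hippocampus (median 4925) and to between 5050 and 5853 CPM in brainstem (median 5388). All 8 oligodendrocyte markers were lower in hippocampus, where they summed to between 3051 and 4737 CPM against 12513 to 21020 CPM in brainstem. Of 8 astrocyte markers 6 were lower and 1 higher in hippocampus, with sums of 2203 to 3039 CPM against 3089 to 3845 CPM. Of 6 endothelial markers 5 were lower in hippocampus (154 to 214 CPM against 286 to 355 CPM), and 4 of 6 microglial markers were higher (222 to 288 CPM against 157 to 269 CPM). All 4 blood markers were lower in hippocampus (132 to 468 CPM against 494 to 2888 CPM), and adipocyte markers summed to at most 1.07 CPM in every library. Choroid plexus markers varied widely among libraries, with sums of 12.4 to 2962 CPM in brainstem against 38.4 to 317 CPM in hippocampus. Without the 8 libraries of highest Ttr, the leading choroid plexus marker, 26 of the 37 genes were called lower in hippocampus and 5 higher. The part of cell composition in the regional result was not tested. The study describes RNA of both regions from the same animals, but no label ties the libraries of the regions to each other. Whether every library has a partner is not given, so the fit treated libraries as independent. The labels name no batch of dissection, extraction or sequencing, so any separate handling of the regions and the region itself cannot be told apart.

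**Figure D2:**
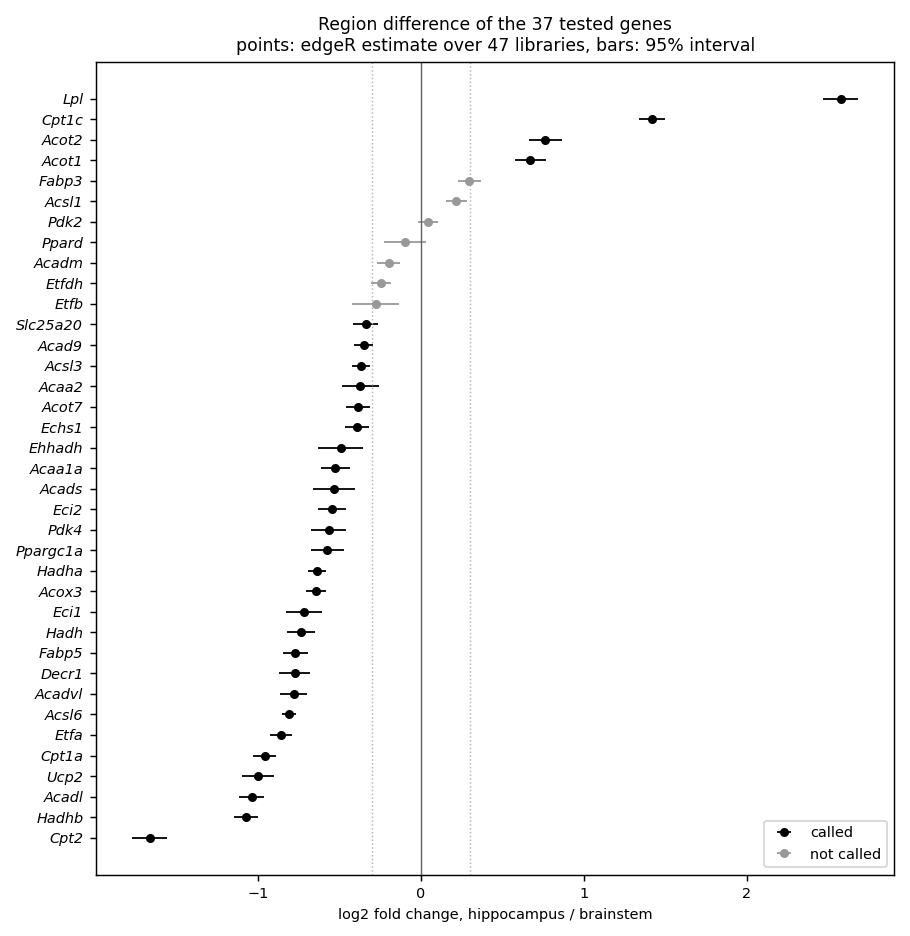
Log2 fold change of hippocampus over brainstem for the 37 tested genes, with points for the edgeR estimate over 47 libraries and bars for its 95% interval; black genes were called, grey genes were not, and dotted lines mark a log2 fold change of 0.3 in either direction. Of the 30 called genes, 26 lie left of zero, down to -1.66 for Cpt2, and 4 lie right of it, up to 2.58 for Lpl.

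The regions were also compared within each genotype and diet. These contrasts were taken from the same fit of all libraries and share its estimate of spread. They are therefore not separate fits of each group's own libraries. Of the 37 genes, 27 were called in all 4 groups and 5 in none, and every gene kept its direction in the 4 groups. How many of all tested genes did so was not counted, so this is not shown to be particular to these genes. The 5 genes called in none were Acadm, Etfdh, Ppard, Pdk2 and Acsl1. The counts were 5 higher and 25 lower in hippocampus in WT_SD, 4 and 27 in WT_HFD, 5 and 27 in TG_SD, and 5 and 24 in TG_HFD, where the share of all genes called was 59.6%, 61.5%, 60.8% and 58.6%.

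The carnitine shuttle held the largest difference lower in hippocampus and a large one in the opposite direction. Cpt1a encodes the outer-membrane transferase that sets the rate of entry into the mitochondrion. Cpt1c encodes a relative found mainly in neurons, which sits in the endoplasmic reticulum and has little transferase activity. The 250 bases upstream of the start of both genes are shown because the pair differed in opposite directions between the regions (RefSeq, build GRCm38.p6, 5′ to 3′ on the strand of the gene). Capitals mark AGGTCA, the half-site bound by nuclear receptors of the PPAR type, or its reverse complement, found by a search of both strands. The Cpt1a window is chr19:3323051-3323300, plus strand, with the half-site starting 94 bases before the start, and that of Cpt1c is chr7:44974852-44975101, minus strand, with the half-site 146 bases before it.
Cpt1a: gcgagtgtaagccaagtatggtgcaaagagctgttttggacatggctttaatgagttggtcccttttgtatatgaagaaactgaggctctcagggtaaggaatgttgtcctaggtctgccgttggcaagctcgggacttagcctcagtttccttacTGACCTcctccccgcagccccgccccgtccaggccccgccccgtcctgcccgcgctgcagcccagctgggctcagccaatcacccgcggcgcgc
Cpt1c: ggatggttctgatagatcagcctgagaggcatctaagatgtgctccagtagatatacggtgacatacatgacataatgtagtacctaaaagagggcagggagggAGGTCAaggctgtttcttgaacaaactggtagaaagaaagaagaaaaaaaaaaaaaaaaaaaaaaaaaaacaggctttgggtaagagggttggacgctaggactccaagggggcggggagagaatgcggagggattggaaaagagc
Of the 39 genes, 33 had such a window, and 6 of these held AGGTCA on either strand (Cpt1a, Cpt1c, Acadm, Acadvl, Echs1 and Acsl6), beside 15.8% of 27025 genes with a window. The full PPAR element as searched, AGGTCANAGGTCA on either strand, in which AGGTCA stands at both ends, was in 0 of the 33 windows and in 0.0407% of all genes. A match of letters is a description of the window and not evidence of binding, and no binding was measured here.

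Brainstem Cpt1a lay at 49.8, 50.3, 55.6, 59.6 and 60.3 CPM in the WT_SD libraries, at 49.6, 51.9 and 62.5 CPM in WT_HFD, at 51.3, 54 and 63.1 CPM in TG_SD and at 51.3, 56.7 and 58.5 CPM in TG_HFD. Of the 3 values given for a group of 6 libraries, here and for each gene that follows, the first is the lowest library, the middle the median and the last the highest. Hippocampal Cpt1a lay at 24.9, 27.6 and 33.2 CPM in WT_SD, at 26.5, 28.1 and 32.4 CPM in WT_HFD, at 26.2, 27.7 and 32 CPM in TG_SD and at 25.3, 26.8 and 30.5 CPM in TG_HFD. Every brainstem library lay above every hippocampal one, and the groups of a region overlapped. How many of all genes have regions without overlap was not counted. Such a separation, here and for the genes that follow, is therefore not shown to be particular to these genes. The log2 fold change of Cpt1a was -0.96 ± 0.0353 (standard error), or 1.94-fold higher in brainstem (adjusted p = 2.01e-29 by edgeR). Brainstem Cpt1c lay at 30, 32.2, 34, 36 and 38.7 CPM in the WT_SD libraries, at 34.8, 38.5 and 43.1 CPM in WT_HFD, at 31.7, 32.6 and 37.3 CPM in TG_SD and at 21.5, 34.7 and 37.4 CPM in TG_HFD. Hippocampal Cpt1c lay at 82.4, 95.5 and 102 CPM in WT_SD, at 90.3, 102 and 105 CPM in WT_HFD, at 77.2, 89.7 and 97.1 CPM in TG_SD and at 81.9, 88.1 and 94.5 CPM in TG_HFD. The order of the regions was turned round, with every hippocampal library above every brainstem library. Cpt1c had a log2 fold change of 1.42 ± 0.0403 (standard error), or 2.67-fold higher in hippocampus (adjusted p = 3.19e-34 by edgeR). Per kb, Cpt1a stood at 1.14 times Cpt1c in the median brainstem library (0.865 to 1.95 over 23 libraries) and at 0.224 times Cpt1c in the median hippocampal library (0.179 to 0.285 over 24 libraries). The ratios of the regions did not overlap.

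Cpt2, the inner-membrane transferase that returns the fatty acid to CoA, had the direction of Cpt1a. Brainstem Cpt2 lay at 13.8, 14.5, 15, 15.1 and 17.2 CPM in the WT_SD libraries, at 14.1, 14.9 and 15.8 CPM in WT_HFD, at 12.4, 14 and 14.4 CPM in TG_SD and at 12, 14.2 and 15.1 CPM in TG_HFD. Hippocampal Cpt2 lay at 4.27, 4.49 and 5.65 CPM in WT_SD, at 2.86, 4.40 and 5.60 CPM in WT_HFD, at 3.80, 4.68 and 5.79 CPM in TG_SD and at 3.45, 4.28 and 5.06 CPM in TG_HFD. Every brainstem library stood well above the highest hippocampal one. Its log2 fold change of -1.66 ± 0.0528 (standard error) was the largest in size after that of Lpl, 3.17-fold higher in brainstem (adjusted p = 3.49e-32 by edgeR). Slc25a20, the carrier that exchanges acylcarnitine for carnitine across the inner membrane, differed less. Brainstem Slc25a20 lay at 12.8, 12.8, 13.6, 14.9 and 15.8 CPM in the WT_SD libraries, at 12.4, 14.1 and 15.6 CPM in WT_HFD, at 13.1, 14.2 and 15.7 CPM in TG_SD and at 13.2, 13.7 and 16.1 CPM in TG_HFD. Hippocampal Slc25a20 lay at 10.6, 12.1 and 12.4 CPM in WT_SD, at 9.55, 10.8 and 12.2 CPM in WT_HFD, at 10.6, 11.3 and 12.5 CPM in TG_SD and at 9.07, 10.9 and 12.2 CPM in TG_HFD. The highest hippocampal values reached into the brainstem range. Slc25a20 was 1.26-fold higher in brainstem, at a log2 fold change of -0.34 ± 0.0378 (standard error) (adjusted p = 2.17e-11 by edgeR).

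All 5 acyl-CoA dehydrogenases, which open the cycle, had lower estimates in hippocampus, and 4 of them were called. Acadl acts on long chains. Brainstem Acadl lay at 63.7, 69.5, 70.8, 74 and 82.8 CPM in the WT_SD libraries, at 68.2, 72.9 and 78.1 CPM in WT_HFD, at 61.3, 76.2 and 83.1 CPM in TG_SD and at 63.5, 73.9 and 81.3 CPM in TG_HFD. Hippocampal Acadl lay at 30.8, 33.2 and 39.96 CPM in WT_SD, at 31.4, 34.1 and 36.2 CPM in WT_HFD, at 29.8, 35.4 and 43.2 CPM in TG_SD and at 34.6, 37 and 41.1 CPM in TG_HFD. No library of one region reached the range of the other. The log2 fold change of Acadl was -1.04 ± 0.0390 (standard error), 2.05-fold higher in brainstem (adjusted p = 4.18e-29 by edgeR). Acadm acts on medium chains. Brainstem Acadm lay at 31.3, 34.1, 36.3, 39.9 and 42.7 CPM in the WT_SD libraries, at 33.6, 35.6 and 40.7 CPM in WT_HFD, at 34.2, 37.8 and 43.3 CPM in TG_SD and at 34.1, 36.1 and 40.4 CPM in TG_HFD. Hippocampal Acadm lay at 30.6, 32.3 and 35.6 CPM in WT_SD, at 27.3, 30.01 and 32.7 CPM in WT_HFD, at 30.1, 33.2 and 37.7 CPM in TG_SD and at 29.4, 33.6 and 36.5 CPM in TG_HFD. Its regions overlapped, and its log2 fold change of -0.20 ± 0.0351 (standard error) passed the p threshold (adjusted p = 1.43e-06 by edgeR) but not the fold threshold. Per kb, Acadl stood at 3.87 times Acadm in brainstem (3.26 to 4.53) and at 2.16 times in hippocampus (1.82 to 2.43).

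Acads acts on short chains. Brainstem Acads lay at 7.57, 7.58, 8.50, 8.91 and 9.73 CPM in the WT_SD libraries, at 9.65, 10.3 and 12.5 CPM in WT_HFD, at 6.60, 7.91 and 9.21 CPM in TG_SD and at 5.51, 8.56 and 9.83 CPM in TG_HFD. Hippocampal Acads lay at 5.50, 6.09 and 8.05 CPM in WT_SD, at 5.62, 6.46 and 7.02 CPM in WT_HFD, at 3.65, 5.49 and 7.71 CPM in TG_SD and at 4.29, 5.95 and 6.68 CPM in TG_HFD. The regions overlapped, at a log2 fold change of -0.53 ± 0.0651 (standard error) (adjusted p = 2.62e-10 by edgeR). Acadvl, for very long chains, ran from 22.5 to 34.1 CPM in brainstem (median 25.7) and from 12.2 to 19.2 CPM in hippocampus (median 14.9). Acad9, a relative needed to assemble respiratory complex I, ran from 27.4 to 33.5 CPM in brainstem (median 29.98) and from 21.4 to 27.1 CPM in hippocampus (median 23). Neither gene had overlapping regions, with log2 fold changes of -0.78 and -0.35 (edgeR adjusted p = 7.75e-23 and 9.31e-16).

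The 5 genes for the hydration, second dehydrogenation and thiolysis were all called lower in hippocampus. Hadha and Hadhb encode the α and β subunits of the trifunctional protein, which carries out these steps for long chains. Brainstem Hadha lay at 83.3, 87.9, 88.2, 96.8 and 102 CPM in the WT_SD libraries, at 82.8, 88.4 and 89.7 CPM in WT_HFD, at 82.1, 86.8 and 93.8 CPM in TG_SD and at 77.7, 87.6 and 89.9 CPM in TG_HFD. Hippocampal Hadha lay at 53.2, 58.8 and 64.5 CPM in WT_SD, at 49.8, 55.3 and 58.1 CPM in WT_HFD, at 52.3, 55.8 and 62.4 CPM in TG_SD and at 51.8, 55 and 61.1 CPM in TG_HFD. Hadha was lower in every hippocampal library than in any brainstem library. Its log2 fold change was -0.64 ± 0.0272 (standard error), 1.56-fold higher in brainstem (adjusted p = 8.74e-27 by edgeR). Brainstem Hadhb lay at 146, 149, 161, 181 and 194 CPM in the WT_SD libraries, at 159, 165 and 178 CPM in WT_HFD, at 161, 168 and 197 CPM in TG_SD and at 151, 159.6 and 177 CPM in TG_HFD. Hippocampal Hadhb lay at 74, 78 and 99 CPM in WT_SD, at 71.1, 78.4 and 82.3 CPM in WT_HFD, at 68.6, 76.9 and 96.1 CPM in TG_SD and at 71.8, 79.3 and 87.9 CPM in TG_HFD. Hadhb was likewise separated, at a larger log2 fold change of -1.07 ± 0.0371 (standard error) (adjusted p = 1.37e-30 by edgeR). The subunits differed by unequal factors, with Hadha at 0.400 times Hadhb per kb in brainstem (0.347 to 0.454) and at 0.544 times in hippocampus (0.445 to 0.603).

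Echs1, the short-chain enoyl-CoA hydratase, and Acaa2, the mitochondrial thiolase, differed less between the regions. Brainstem Echs1 lay at 53.7, 54.2, 56.9, 61.3 and 77.1 CPM in the WT_SD libraries, at 57.7, 63.5 and 76.1 CPM in WT_HFD, at 54.8, 60.02 and 70.4 CPM in TG_SD and at 53.6, 57.1 and 60.4 CPM in TG_HFD. Hippocampal Echs1 lay at 43.4, 47.6 and 50.8 CPM in WT_SD, at 41.8, 45.9 and 52.3 CPM in WT_HFD, at 43.5, 46.4 and 52.3 CPM in TG_SD and at 39.7, 44.2 and 47 CPM in TG_HFD. Echs1 did not overlap between the regions, with a log2 fold change of -0.39 ± 0.0366 (standard error) (adjusted p = 9.19e-14 by edgeR). Brainstem Acaa2 lay at 18.1, 21.2, 24.4, 24.8 and 26.7 CPM in the WT_SD libraries, at 19.1, 24.2 and 25.6 CPM in WT_HFD, at 20.1, 21.4 and 31.6 CPM in TG_SD and at 19.8, 20.7 and 25.1 CPM in TG_HFD. Hippocampal Acaa2 lay at 16, 18 and 19.5 CPM in WT_SD, at 14.3, 17.3 and 19.2 CPM in WT_HFD, at 14.3, 16.4 and 22.7 CPM in TG_SD and at 14.7, 17.4 and 22.2 CPM in TG_HFD. Acaa2 overlapped between the regions, and its highest brainstem library, TG_SD replicate 2, stood apart from its group. Its log2 fold change was -0.37 ± 0.0556 (standard error) (adjusted p = 4.31e-08 by edgeR). Hadh, the hydroxyacyl-CoA dehydrogenase for shorter chains, ran from 27.8 to 45.4 CPM in brainstem (median 35.6) and from 18.3 to 27.3 CPM in hippocampus (median 20.9), with a log2 fold change of -0.73 (adjusted p = 5.64e-21 by edgeR).

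The 3 auxiliary enzymes, which let unsaturated fatty acids enter the cycle, were all lower in hippocampus without overlap of the regions. The isomerase Eci1 ran from 16.3 to 25.3 CPM in brainstem (median 19.4) and from 9.91 to 15.4 CPM in hippocampus (median 11.4). Its relative Eci2 ran from 28.3 to 39 CPM in brainstem (median 31.6) and from 18.1 to 26.5 CPM in hippocampus (median 21.2). The dienoyl-CoA reductase Decr1 ran from 25.9 to 43 CPM in brainstem (median 30.5) and from 15.2 to 22.4 CPM in hippocampus (median 18.2). Their log2 fold changes were -0.72, -0.55 and -0.77 (edgeR adjusted p = 7.45e-17, 1.3e-16 and 3.09e-20). Electron transfer was uneven among its parts. Etfa, the α subunit of the electron transfer flavoprotein, ran from 44.9 to 61 CPM in brainstem (median 50.6) and from 25.6 to 33 CPM in hippocampus (median 28), at a log2 fold change of -0.86 (adjusted p = 1.99e-28 by edgeR). Etfb, the β subunit, ran from 3.37 to 7.49 CPM in brainstem (median 6.37) and from 3.71 to 6.88 CPM in hippocampus (median 4.85), and its log2 fold change of -0.28 missed the fold threshold (adjusted p = 0.000462 by edgeR). Etfdh hands the electrons on to ubiquinone. Brainstem Etfdh lay at 36.1, 36.4, 38.5, 40.2 and 41.8 CPM in the WT_SD libraries, at 33.5, 35.4 and 38.7 CPM in WT_HFD, at 32.1, 36.7 and 41.5 CPM in TG_SD and at 33.1, 36.4 and 39.7 CPM in TG_HFD. Hippocampal Etfdh lay at 31.4, 33.1 and 35.5 CPM in WT_SD, at 26.5, 29.8 and 33.1 CPM in WT_HFD, at 29, 31.9 and 34.8 CPM in TG_SD and at 28.6, 29.4 and 30.9 CPM in TG_HFD. Etfdh overlapped between the regions and, at -0.25 ± 0.0304 (standard error), missed the fold threshold too (adjusted p = 3.59e-10 by edgeR).

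The 3 peroxisomal enzymes, which shorten very long or branched chains, were all called lower in hippocampus. Ehhadh had mean counts of 59.6 in brainstem and 47.6 in hippocampus, so it entered this test through the region where it is higher. Within TG_HFD it was not called (edgeR adjusted p = 0.0748). With edgeR's filterByExpr in place of the count filter, its log2 fold change between the regions was -0.44 (edgeR adjusted p = 1.88e-07). Acox3 is an acyl-CoA oxidase. Brainstem Acox3 lay at 39.5, 42, 43, 44 and 46.3 CPM in the WT_SD libraries, at 39.5, 43.3 and 47.8 CPM in WT_HFD, at 39.5, 43.7 and 44.4 CPM in TG_SD and at 37.2, 41.1 and 48.8 CPM in TG_HFD. Hippocampal Acox3 lay at 25.6, 27.2 and 31.3 CPM in WT_SD, at 24.7, 26.4 and 30.6 CPM in WT_HFD, at 25.9, 27.7 and 29 CPM in TG_SD and at 25.1, 26.2 and 29.1 CPM in TG_HFD. Acox3 was separated between the regions, with a log2 fold change of -0.65 ± 0.0306 (standard error) (adjusted p = 7.68e-25 by edgeR). The thiolase Acaa1a ran from 33.5 to 62.3 CPM in brainstem (median 46.2) and from 26.1 to 39.9 CPM in hippocampus (median 31.6), and the bifunctional enzyme Ehhadh ran from 3.10 to 5.70 CPM in brainstem (median 4.62) and from 2.47 to 4.52 CPM in hippocampus (median 3.297). Their regions overlapped, at log2 fold changes of -0.52 and -0.49 (edgeR adjusted p = 3.82e-15 and 8.33e-09).

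Of the regulators, Ppara, the receptor that drives fatty acid oxidation in liver, had few counts in both regions. Brainstem Ppara lay at 1.39, 1.55, 1.76, 1.76 and 1.92 CPM in the WT_SD libraries, at 0.983, 1.75 and 2.73 CPM in WT_HFD, at 1.05, 1.72 and 1.93 CPM in TG_SD and at 0.557, 1.47 and 2.18 CPM in TG_HFD. Hippocampal Ppara lay at 1.49, 1.84 and 2.53 CPM in WT_SD, at 1.23, 1.78 and 2.10 CPM in WT_HFD, at 1.33, 1.88 and 2.26 CPM in TG_SD and at 0.819, 1.35 and 2.86 CPM in TG_HFD. Its regions and groups overlapped. With edgeR's filterByExpr in place of the count filter, Ppara was tested, and its log2 fold change between the regions was 0.13 (edgeR adjusted p = 0.346). Ppard, the receptor of the family that is present in most tissues, ran from 9.04 to 20.9 CPM in brainstem (median 14.9) and from 11.2 to 16.9 CPM in hippocampus (median 13.6), and its log2 fold change of -0.10 (95% interval -0.22 to 0.03) did not pass the test (adjusted p = 0.158 by edgeR). Ppargc1a encodes PGC-1α, a coactivator that raises mitochondrial gene expression. Brainstem Ppargc1a lay at 57, 57.5, 69.98, 72.8 and 72.9 CPM in the WT_SD libraries, at 45.1, 62.3 and 70.03 CPM in WT_HFD, at 59.3, 63.1 and 64.2 CPM in TG_SD and at 53.7, 64.6 and 84.8 CPM in TG_HFD. Hippocampal Ppargc1a lay at 36.1, 42.2 and 46.9 CPM in WT_SD, at 36.2, 39.9 and 46.1 CPM in WT_HFD, at 34.6, 46.4 and 50.7 CPM in TG_SD and at 34.7, 44.9 and 49.2 CPM in TG_HFD. The upper hippocampal values of Ppargc1a reached into the brainstem range, and it was 1.49-fold higher in brainstem, at a log2 fold change of -0.57 ± 0.0507 (standard error) (adjusted p = 1.43e-14 by edgeR).

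Among genes that PPARs are known to induce in peripheral organs, Pdk4 encodes a kinase that shuts off pyruvate dehydrogenase when fat is burned. Brainstem Pdk4 lay at 13.4, 13.8, 14.4, 15.1 and 15.2 CPM in the WT_SD libraries, at 12.6, 14.5 and 15.3 CPM in WT_HFD, at 13.4, 15.1 and 19.3 CPM in TG_SD and at 13.6, 15.4 and 18.8 CPM in TG_HFD. Hippocampal Pdk4 lay at 7.67, 10.3 and 11.1 CPM in WT_SD, at 6.11, 9.09 and 11.5 CPM in WT_HFD, at 9.31, 11.5 and 13.4 CPM in TG_SD and at 8.82, 10.7 and 11.4 CPM in TG_HFD. The highest hippocampal values of Pdk4 reached into the brainstem range, at a log2 fold change of -0.57 ± 0.0537 (standard error) (adjusted p = 1.43e-13 by edgeR). Its relative Pdk2 ran from 78.4 to 109.6 CPM in brainstem (median 87) and from 83.4 to 108 CPM in hippocampus (median 91.2) and did not pass the test, at 0.04 (95% interval -0.02 to 0.10, edgeR adjusted p = 0.168). Ucp2 encodes a carrier of the inner mitochondrial membrane. Brainstem Ucp2 lay at 42.7, 50.9, 52.5, 53.1 and 60.3 CPM in the WT_SD libraries, at 43.3, 52.2 and 59.3 CPM in WT_HFD, at 35.3, 45.6 and 52.6 CPM in TG_SD and at 38.6, 47.9 and 51.1 CPM in TG_HFD. Hippocampal Ucp2 lay at 19.2, 24.4 and 28.8 CPM in WT_SD, at 23.1, 25 and 32.3 CPM in WT_HFD, at 20.1, 24.1 and 29.7 CPM in TG_SD and at 18.7, 22.6 and 27 CPM in TG_HFD. Ucp2 was lower in every hippocampal library than in any of brainstem, by a log2 fold change of -0.998 ± 0.0499 (standard error), or 1.997-fold (adjusted p = 6.76e-24 by edgeR). Angptl4 had few counts too. Brainstem Angptl4 lay at 0.994, 1.04, 1.18, 1.55 and 1.72 CPM in the WT_SD libraries, at 1.25, 1.87 and 3.03 CPM in WT_HFD, at 1.20, 1.63 and 2.98 CPM in TG_SD and at 1.27, 2.08 and 2.54 CPM in TG_HFD. Hippocampal Angptl4 lay at 0.909, 2.11 and 3.17 CPM in WT_SD, at 1.23, 1.73 and 2.47 CPM in WT_HFD, at 1.04, 1.66 and 2.82 CPM in TG_SD and at 1.26, 1.53 and 2.12 CPM in TG_HFD. Angptl4 overlapped throughout, and with filterByExpr its log2 fold change between the regions was 0.08 (edgeR adjusted p = 0.58).

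The acyl-CoA thioesterases, which split acyl-CoA into fatty acid and CoA, parted in direction. Acot1 acts in the cytosol and Acot2 in mitochondria. The 2 genes are close neighbours on chromosome 12 and were both higher in hippocampus, so their upstream windows are shown (RefSeq, GRCm38.p6, chr12:84009252-84009501, plus strand, and chr12:83987611-83987860, plus strand). Neither window held AGGTCA on either strand, so no base is in capitals.
Acot1: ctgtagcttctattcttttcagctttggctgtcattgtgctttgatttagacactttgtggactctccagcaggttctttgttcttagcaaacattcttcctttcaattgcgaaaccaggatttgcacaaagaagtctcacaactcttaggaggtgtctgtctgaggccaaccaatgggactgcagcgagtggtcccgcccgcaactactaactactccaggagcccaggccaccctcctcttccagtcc
Acot2: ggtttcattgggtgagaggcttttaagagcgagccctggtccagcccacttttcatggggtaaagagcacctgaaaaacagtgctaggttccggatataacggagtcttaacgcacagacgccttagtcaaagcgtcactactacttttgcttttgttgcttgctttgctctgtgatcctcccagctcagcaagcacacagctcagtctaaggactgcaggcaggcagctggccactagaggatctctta
Brainstem Acot1 lay at 8.65, 9.60, 9.99, 10.1 and 10.5 CPM in the WT_SD libraries, at 8.10, 9.96 and 11.5 CPM in WT_HFD, at 9.02, 10.2 and 11.1 CPM in TG_SD and at 7.40, 9.97 and 10.7 CPM in TG_HFD. Hippocampal Acot1 lay at 12.5, 16.2 and 17.2 CPM in WT_SD, at 13.3, 15.7 and 17.7 CPM in WT_HFD, at 13.8, 15.5 and 18.2 CPM in TG_SD and at 12.4, 15.4 and 17.1 CPM in TG_HFD. Every hippocampal library was above every brainstem library. Brainstem Acot2 lay at 6.47, 8.25, 8.62, 8.75 and 9.51 CPM in the WT_SD libraries, at 6.26, 7.50 and 9.05 CPM in WT_HFD, at 6.52, 7.90 and 8.77 CPM in TG_SD and at 7.02, 7.92 and 9.88 CPM in TG_HFD. Hippocampal Acot2 lay at 11.8, 13.8 and 14.8 CPM in WT_SD, at 11, 13.5 and 15.3 CPM in WT_HFD, at 10.9, 13 and 16.6 CPM in TG_SD and at 12.5, 13.5 and 14.7 CPM in TG_HFD. Acot2 was separated in the same direction. The log2 fold changes were 0.67 ± 0.0473 (standard error) for Acot1 and 0.76 ± 0.0507 (standard error) for Acot2 (edgeR adjusted p = 4.65e-18 and 4.63e-19). The genes have near-identical stretches, so their values are uncertain: 11.2% of the 75-base stretches of Acot1 transcripts, 75 bases being the read length, also occur in Acot2, and 20.5% of those of Acot2 occur in Acot1. Acot1 stood at 0.682 times Acot2 per kb in brainstem (0.566 to 0.854) and at 0.643 times in hippocampus (0.530 to 0.759), ranges that overlap. Acot7, the abundant member, went the other way. Brainstem Acot7 lay at 221, 239, 249, 249.7 and 277 CPM in the WT_SD libraries, at 248, 288 and 306 CPM in WT_HFD, at 182, 219 and 250.3 CPM in TG_SD and at 169, 245 and 258 CPM in TG_HFD. Hippocampal Acot7 lay at 175, 193 and 199 CPM in WT_SD, at 188, 203 and 222 CPM in WT_HFD, at 155, 171 and 192 CPM in TG_SD and at 167, 181 and 196 CPM in TG_HFD. It was 1.31-fold higher in brainstem, at a log2 fold change of -0.39 ± 0.0366 (standard error), with overlap of the regions (adjusted p = 1.28e-13 by edgeR).

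The acyl-CoA synthetases activate fatty acids for all later uses. Acsl3, of the endoplasmic reticulum and lipid droplets, was called. Brainstem Acsl3 lay at 247, 254, 259.5, 268 and 271 CPM in the WT_SD libraries, at 231, 243 and 253 CPM in WT_HFD, at 256, 287 and 302 CPM in TG_SD and at 236, 256 and 277 CPM in TG_HFD. Hippocampal Acsl3 lay at 178, 205 and 221 CPM in WT_SD, at 169, 188 and 201 CPM in WT_HFD, at 189.7, 215 and 221 CPM in TG_SD and at 184, 207 and 226 CPM in TG_HFD. Acsl3 did not overlap between the regions, at a log2 fold change of -0.37 ± 0.0273 (standard error) (adjusted p = 2.7e-17 by edgeR). Acsl6, which serves polyunsaturated fatty acids in brain, ran from 299 to 352 CPM in brainstem (median 330.2) and from 171 to 201 CPM in hippocampus (median 192), at a log2 fold change of -0.81 (adjusted p = 2.81e-36 by edgeR). Acsl1, the form of liver, heart and fat, ran from 35.6 to 50.1 CPM in brainstem (median 42.6) and from 44.2 to 55.9 CPM in hippocampus (median 50.5). Its log2 fold change of 0.22 passed the p threshold only (adjusted p = 1.84e-08 by edgeR).

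Lpl, the lipase that frees fatty acids from lipoproteins, had the largest regional difference of the 37 genes. Brainstem Lpl lay at 8.13, 8.80, 9.97, 10.1 and 11.1 CPM in the WT_SD libraries, at 6.79, 9.29 and 9.92 CPM in WT_HFD, at 8.86, 10.9 and 12.1 CPM in TG_SD and at 11.4, 13.2 and 22.6 CPM in TG_HFD. Hippocampal Lpl lay at 56.7, 61.5 and 74.7 CPM in WT_SD, at 54.8, 63.8 and 66.7 CPM in WT_HFD, at 60.1, 68.8 and 73.9 CPM in TG_SD and at 57.3, 67 and 70.4 CPM in TG_HFD. Every hippocampal library stood well above the highest brainstem library. Lpl was 5.96-fold higher in hippocampus, at a log2 fold change of 2.58 ± 0.0532 (standard error) (adjusted p = 3.22e-40 by edgeR). Of the binding proteins, Fabp5 ran from 119.6 to 163 CPM in brainstem (median 141) and from 74.9 to 94.2 CPM in hippocampus (median 84.1), at a log2 fold change of -0.77 (adjusted p = 2.43e-24 by edgeR). Fabp3 ran from 23.6 to 37.4 CPM in brainstem (median 27.5) and from 32 to 40.5 CPM in hippocampus (median 34.1). Its log2 fold change of 0.298 stood just under the fold threshold and was not called (adjusted p = 2e-10 by edgeR).

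Reads cannot always be given to a single one of these genes. For 10 of the 39, over 5% of the 75-base stretches of their transcripts also occur in another annotated gene, so their counts are uncertain. They were Etfb (39.6%), Fabp3 (26%, shared with its pseudogene Fabp3-ps1), Acot2 (21.2%), Acadvl (19.5%, in its overlapping neighbour Dvl2), Hadhb (16.7%), Acot1 (15%), Acaa1a (12.6%, with Acaa1b), Acad9 (10.6%), Acsl1 (8.77%) and Eci2 (6.77%). How such reads were counted is not given in the sources used here.

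**Figure D3:**
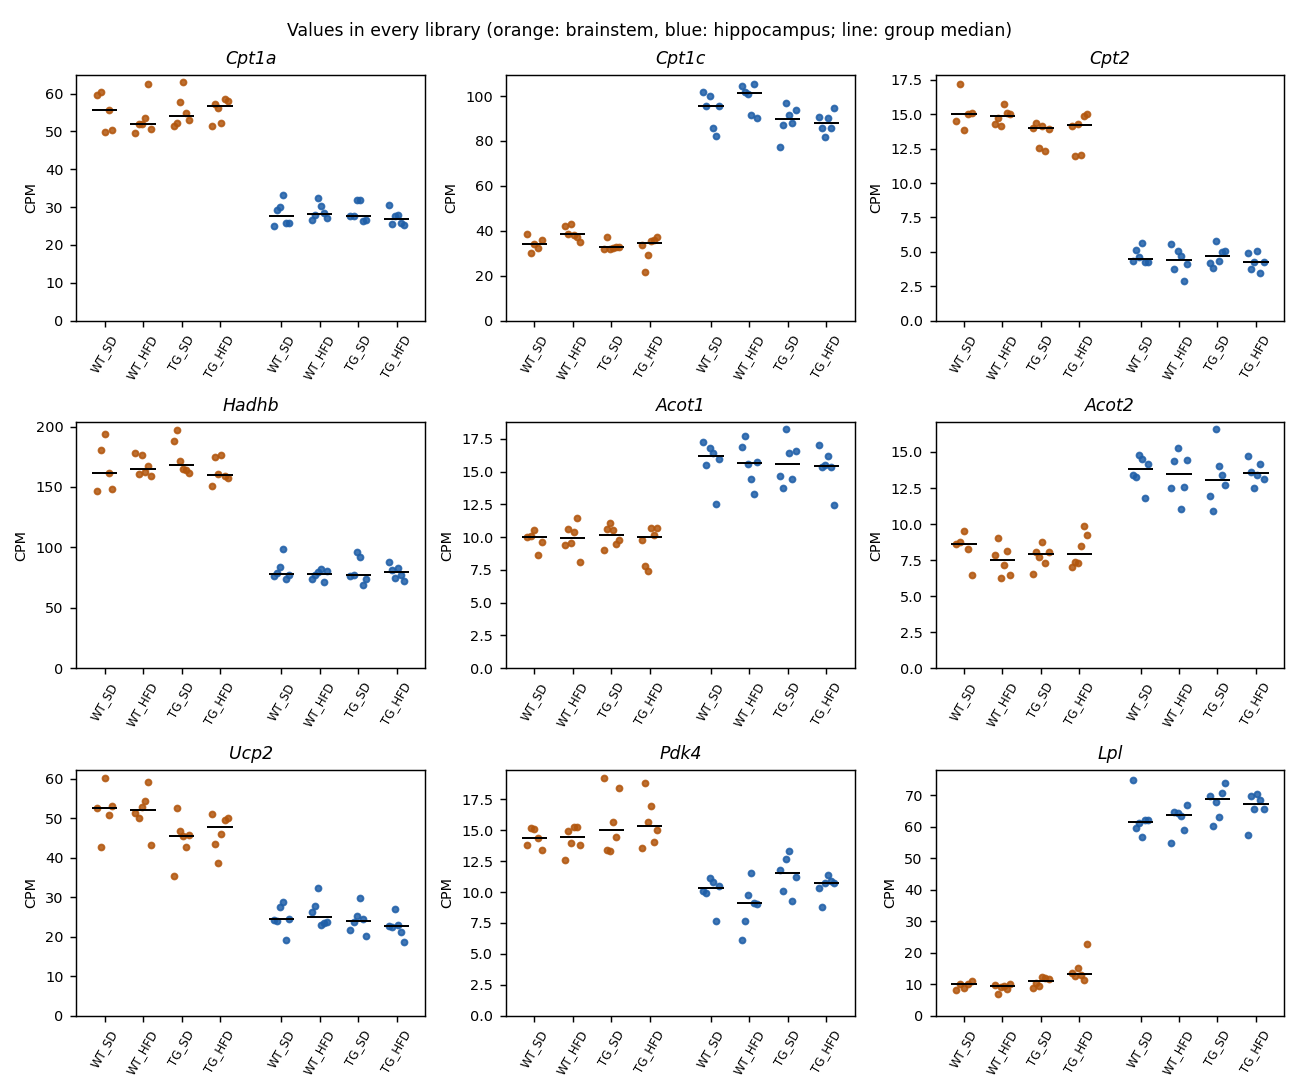
CPM in every library for 9 genes, on axes that start at 0, with brainstem in orange and hippocampus in blue, 4 groups per region and a line at each group's median. Within a region the groups of Cpt1a, Cpt1c, Cpt2, Hadhb, Acot1, Acot2, Ucp2 and Pdk4 overlap, the regions stand apart for all but Pdk4, and brainstem TG_HFD libraries of Lpl, at 11.4, 13.2 and 22.6 CPM (lowest, median, highest), lie above those of WT_HFD.

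The comparison of diets asked whether these genes differ between HFD and SD in each genotype and region. No gene was called for HFD against SD in any of the 4 comparisons by edgeR, and none by DESeq2. In WT brainstem 0 of 37 were called, against 0% of all 13340 genes, and 1 of 37 had an unadjusted p up to 0.05, against 5.43%. In TG brainstem 0 of 37 were called against 0.0075%, and 4 had an unadjusted p up to 0.05 against 6.91%. In WT hippocampus 0 of 36 were called against 0% of 13272 genes, and 1 had an unadjusted p up to 0.05 against 6.4%. In TG hippocampus 0 of 36 were called against 0%, and 3 had an unadjusted p up to 0.05 against 7.08%. The fits held 4 surrogate variables, estimates of unlabelled variation between libraries. In a fit with 0 of them no gene was called by edgeR either, and an unadjusted p up to 0.05 was found for 1 gene in WT brainstem against 6.6%, 4 in TG brainstem against 6.26%, 1 in WT hippocampus against 9.14% and 0 in TG hippocampus against 2.78%.

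With 4 surrogate variables every estimate was below 0.3 in size. The median log2 fold change (HFD over SD) of the tested genes was -0.0018 in WT brainstem, -0.02 in TG brainstem, -0.02 in WT hippocampus and -0.02 in TG hippocampus. In WT brainstem they ran from -0.22 (Acot2) to 0.20 (Acads), and in TG brainstem from -0.20 (Ehhadh) to 0.29 (Lpl). In WT hippocampus they ran from -0.21 (Slc25a20) to 0.10 (Cpt1a), and in TG hippocampus from -0.13 (Etfdh) to 0.09 (Acot7). The 95% interval of the log2 fold change lay inside 0.3 in either direction for 28 of 37 genes in WT brainstem, 33 of 37 in TG brainstem, 31 of 36 in WT hippocampus and 34 of 36 in TG hippocampus. Over all tested genes those shares were 74.2%, 76.2%, 75.8% and 85.1%. For the genes outside these counts a change of that size is not shown to be absent. Without surrogate variables, 26 of 37 genes in WT brainstem, 23 of 37 in TG brainstem, 31 of 36 in WT hippocampus and 29 of 36 in TG hippocampus had such an interval, against 57%, 59.1%, 72.2% and 78.7% of all genes. Acads in WT brainstem was then at 0.35 (edgeR unadjusted p = 0.00943, adjusted p = 0.714) and Lpl in TG brainstem at 0.46 (unadjusted p = 0.00251, adjusted p = 0.756), both past 0.3 in size but not called.

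The PPAR targets with the best known response to fat elsewhere gave these log2 fold changes for HFD over SD. Pdk4 stood at 0.11 in WT brainstem, -0.03 in TG brainstem, -0.20 in WT hippocampus and -0.08 in TG hippocampus. Cpt1a stood at -0.04 in WT brainstem, -0.05 in TG brainstem, 0.10 in WT hippocampus and -0.06 in TG hippocampus. Acot1 stood at -0.10 in WT brainstem, -0.07 in TG brainstem, 0.01 in WT hippocampus and -0.03 in TG hippocampus. None of these 3 genes had SD and HFD libraries that stood apart, as the plot of 9 genes shows. For Acot2 the values were -0.22 in WT brainstem, 0.08 in TG brainstem, -0.04 in WT hippocampus and 0.07 in TG hippocampus, and for the coactivator Ppargc1a 0.0014 in WT brainstem, -0.04 in TG brainstem, 0.01 in WT hippocampus and -0.05 in TG hippocampus. The trifunctional subunit Hadha stood at -0.07 in WT brainstem, 0.02 in TG brainstem, -0.01 in WT hippocampus and -0.01 in TG hippocampus. The sign of some of these estimates depended on the fit. With 0 surrogate variables, in WT brainstem Pdk4 stood at -0.0077, Acot1 at 0.02 and Ppargc1a at -0.14, and in TG brainstem Cpt1a stood at 0.0061, Ppargc1a at 0.08 and Hadha at -0.0060. In WT hippocampus Acot1 then stood at -0.01 and Ppargc1a at -0.04. Of all tested genes of the 39, the sign of the HFD over SD estimate turned for 8 of 37 in WT brainstem, 13 of 37 in TG brainstem, 15 of 36 in WT hippocampus and 4 of 36 in TG hippocampus, so a direction for these genes is not established here. In that order of comparisons, 19, 21, 22 and 26 estimates lay below 0 with 4 surrogate variables. With 0 surrogate variables 17, 24, 27 and 30 did. Of all tested genes, 46.1%, 49.3%, 53% and 48.6% lay above 0 with 4, and 47.3%, 51.5%, 48.3% and 46.2% with 0. These counts were not tested. With filterByExpr, which lets low genes in, Angptl4 had a log2 fold change of 0.52 in WT brainstem (edgeR adjusted p = 0.988) and of -0.43 in WT hippocampus (adjusted p = 0.882), and Ppara one of -0.27 in WT hippocampus (adjusted p = 0.95), so no low gene was called either.

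**Figure D4:**
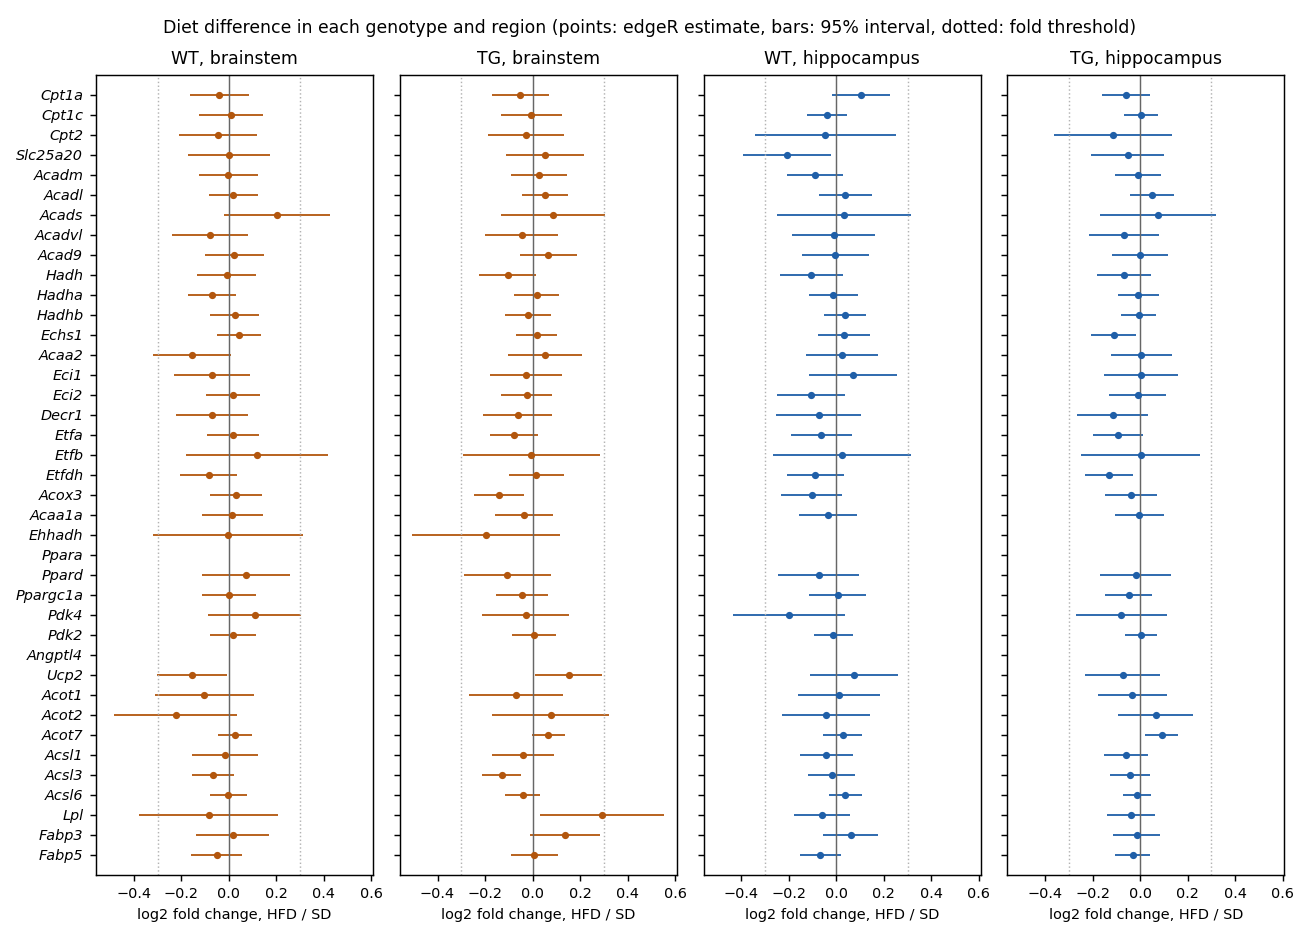
Log2 fold change of HFD over SD for the tested genes in WT and TG brainstem and WT and TG hippocampus, with points for the edgeR estimate with 4 surrogate variables, bars for its 95% interval and dotted lines at 0.3 in either direction. No gene is called in any panel, and the estimates lie between -0.22 (Acot2 in WT brainstem) and 0.29 (Lpl in TG brainstem).

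The genes of lowest unadjusted p differed from panel to panel, except that Ucp2 was among them in both genotypes of brainstem, with opposite signs. In WT brainstem it was Ucp2, with a log2 fold change of -0.15 ± 0.0720 (standard error) (edgeR unadjusted p = 0.0408, adjusted p = 0.91), whose median before adjustment for surrogate variables was 52.5 CPM on SD and 52.2 CPM on HFD. The SD and HFD libraries of Ucp2 overlapped almost fully, and its log2 fold change was -0.0018 with 0 surrogate variables (edgeR unadjusted p = 0.985). In TG brainstem they were Acsl3 at -0.13 ± 0.0407 (standard error) (edgeR unadjusted p = 0.00342, adjusted p = 0.51), Acox3 at -0.14 ± 0.0517 (standard error) (unadjusted p = 0.0101), Lpl at 0.29 ± 0.128 (standard error) (unadjusted p = 0.0292) and Ucp2 at 0.15 ± 0.0696 (standard error) (unadjusted p = 0.0375). In WT hippocampus it was Slc25a20 at -0.21 ± 0.0902 (standard error) (edgeR unadjusted p = 0.0282, adjusted p = 0.721). In TG hippocampus they were Acot7 at 0.09 ± 0.0342 (standard error), Etfdh at -0.13 ± 0.0501 (standard error) and Echs1 at -0.11 ± 0.0458 (standard error) (edgeR adjusted p = 0.549, 0.551 and 0.579). In each of these genes the SD and HFD libraries of the genotype overlapped. They stood apart by a narrow margin for Hadh in TG brainstem, a gene picked here for that after its values were seen, with 35.1 to 37.9 CPM on SD and 27.8 to 35 CPM on HFD, at a log2 fold change of -0.10 ± 0.0582 (standard error) (edgeR adjusted p = 0.778).

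Whether the diet effect differed between the genotypes was tested by the interaction. In brainstem 0 of 37 genes were called by edgeR, against 0.0075% of all genes, and 0 by DESeq2, while 2 had an unadjusted p up to 0.05, against 4.83%. These were Ucp2, with an interaction of 0.31 ± 0.106 (standard error) on the log2 scale (edgeR unadjusted p = 0.00724, adjusted p = 0.993), and Acox3 at -0.17 ± 0.0789 (standard error) (unadjusted p = 0.0354). With 0 surrogate variables these were 0.06 and -0.06 (edgeR unadjusted p = 0.664 and 0.568), and the genes with an unadjusted p up to 0.05 were then Lpl (0.57), Hadh (-0.26) and Acaa1a (-0.31), 3 of 37 against 7.77% of all genes. In hippocampus 0 of 36 were called by edgeR, against 0%, and 0 by DESeq2, while 1 had an unadjusted p up to 0.05, against 5.98%. This was Cpt1a at -0.16 ± 0.0793 (standard error) (edgeR unadjusted p = 0.0497, adjusted p = 0.834). With 0 surrogate variables 0 of 36 had such a p, against 6.04%.

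TG and WT were compared on each diet, where genotype and colony cannot be told apart. On SD, TG over WT gave 0 calls of 37 in brainstem, against 0.142% of all genes, and 0 of 36 in hippocampus, against 0.0904%, by edgeR, and 0 in both by DESeq2. An unadjusted p up to 0.05 was found for 3 genes in brainstem, against 10.5%, namely Ucp2 (-0.20), Acot7 (-0.10) and Acsl3 (0.10), and 2 in hippocampus, against 9.08%, namely Acot7 (-0.11) and Lpl (0.15), all as log2 fold changes. On HFD, TG over WT gave 0 calls of 37 in brainstem, against 0.0525%, and 0 of 36 in hippocampus, against 0.226%, again by both tools. An unadjusted p up to 0.05 was found for 1 gene in brainstem, against 5.59%, and 4 in hippocampus, against 11.3%. The 4 were Lpl (0.18), Cpt1a (-0.18), Hadhb (-0.11) and Echs1 (-0.13). With 0 surrogate variables 2 of 37 genes in brainstem and 2 of 36 in hippocampus had an unadjusted p up to 0.05 on SD, against 6.14% and 5.48%, and the counts on HFD were larger for these genes and for all genes alike. In brainstem 8 of 37 then had an unadjusted p up to 0.05, against 19.7% of all genes, 1 of them higher in TG (Lpl) and 7 lower, with Acads at -0.39, Acaa1a at -0.30, Cpt1c and Acot7 at -0.27, Fabp3 at -0.23, Hadh at -0.22 and Echs1 at -0.18. In hippocampus 7 of 36 did, against 21.9%, with Acsl3 (0.14) and Acadm (0.16) higher in TG and Ppard at -0.28, Acaa1a at -0.23, Acot7 and Cpt1c at -0.16 and Pdk2 at -0.12 lower. Of these genes Lpl was called, and Ppard passed the p threshold (edgeR adjusted p = 0.046) but not the fold threshold. The contrasts on SD and on HFD compare different libraries. Both come from the same fit of a region, with its spread and surrogate variables estimated from all libraries, so they are not independent. The interaction is built from all of them.

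The gene in brainstem on HFD was Lpl, whose call turned on the fit. The 6 TG_HFD libraries lay between 11.4 and 22.6 CPM and the 6 WT_HFD libraries between 6.79 and 9.92 CPM, so these groups did not overlap. The highest TG_HFD library, replicate 8, stood apart at 22.6 CPM, with the others at no more than 15 CPM. The log2 fold change of Lpl was 0.62 ± 0.155 (standard error) (95% interval 0.30 to 0.94, edgeR unadjusted p = 0.000401, adjusted p = 0.253) with 4 surrogate variables. With 0 surrogate variables it was 0.72 and called (edgeR adjusted p = 0.0412), where 0.0375% of all genes were called. Lpl was also called with 1 and with 2 surrogate variables (adjusted p = 0.0057 and 0.00307), with a correction for GC content (adjusted p = 0.0293) and without TG_HFD replicate 7 (0.79, adjusted p = 0.0199). Of 35 alternatives, those 5 called Lpl and 30 did not, and its log2 fold change was above 0 in all 35, from 0.49 to 0.79. The 30 took in DESeq2 (adjusted p = 0.0847), another normalization (0.277), 2 other filters (0.179 and 0.238), GC correction with 0 surrogate variables (0.115), a replicate block with and without surrogate variables (0.215 and 0.0682) and a fit of the 2 groups alone (0.232). Leaving out single libraries gave no call in 22 of 23 fits, with edgeR adjusted p from 0.147 to 0.811, and the lowest estimate, 0.49, came without TG_HFD replicate 8 (adjusted p = 0.312). The 6 microglial markers, a cell type known to express Lpl, summed to 157 to 269 CPM in TG_HFD brainstem (median 199) and to 177 to 223 CPM in WT_HFD brainstem (median 201), and their part in the values of Lpl was not tested.

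Whether the regions differed in their response to the diet was tested in the fit of all 47 libraries. The difference of the HFD over SD log2 fold changes, hippocampus minus brainstem, gave 0 calls of 37 genes in WT, against 0% of all genes, and 0 of 37 in TG, against 0%, by edgeR, and 0 in both by DESeq2. An unadjusted p up to 0.05 was found for 1 gene in WT, against 2.28%, and 1 in TG, against 3.3%. In WT this was Acads, with a difference of -0.37 ± 0.184 (standard error) (edgeR unadjusted p = 0.0476). In TG it was Lpl, with a difference of -0.49 ± 0.145 (standard error) (edgeR unadjusted p = 0.0015, adjusted p = 0.999).

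Other genes of the pathway were read from 5 further lists, beside 31% of all genes called lower in hippocampus, 29.2% called higher and 60.2% called in all. Of 13 tested genes of mitochondrial fatty acid oxidation outside the 39, 6 were lower in hippocampus and 1 higher. Acacb, which makes the malonyl-CoA that inhibits Cpt1a, had a log2 fold change of -0.998, the carnitine transporter Slc22a5 one of -0.84 and the acyl-CoA-binding protein Dbi one of -0.73, while the gene called higher was Mcat, an enzyme of mitochondrial fatty acid synthesis, at 0.42. Of 20 peroxisomal genes 8 were lower and 3 higher, with Nudt7, a CoA diphosphatase, at -1.92, Phyh, which starts the breakdown of phytanic acid, at -0.92, the very long-chain transporter Abcd2 at -0.89 and catalase (Cat) at -0.67. The 3 higher were Pex11a, which acts in peroxisome division, at 0.57, the thioesterase Acot8 at 0.39 and the import receptor Pex5 at 0.33. The shares called of the mitochondrial (7 of 13) and peroxisomal (11 of 20) lists lay below that of all genes. The lists for uptake and for PPAR partners were divided in direction. Of 9 uptake and activation genes 4 were lower and 3 higher, with Acsbg1 at -0.94 and the triglyceride lipase Pnpla2 at -0.75 against the monoglyceride lipase Mgll at 1.79 and Acsl4 at 1.07. Of 12 PPAR partners and targets 4 were lower and 5 higher, with the lipid droplet proteins Plin2 at -1.72 and Plin4 at -1.18 against the corepressor Ncor1 at 1.31 and the coactivator Ncoa1 at 1.02. Of 6 genes of ketone body use 2 were lower, among them the monocarboxylate transporter Slc16a1 at -0.96, and 1 was higher.

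For HFD over SD, no gene of the 5 lists was called by edgeR in either genotype or region.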

How the data were processed

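RNA was measured as poly(A)-selected TruSeq libraries, sequenced as single 75-base reads. Per the labels and the methods of the study, the authors aligned reads to the mouse genome of Ensembl. The submitters' processing notes name FastQC 0.11.9, STAR 2.7.9a and DESeq2 1.32.0, while the counting program and its use of strand are not given in the sources used here. The deposited values are raw counts per gene, 33139 rows for brainstem and 31751 for hippocampus, 29858 of them in both, and absent rows were taken as 0 in the joined table. Symbols, exon lengths and GC content came from a GENCODE annotation of GRCm38, which is not the build of the alignment, so no coordinates were taken across.

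Genes whose mean count reached 50 were fitted in R 4.3.3 with edgeR 4.0.16 (TMM, quasi-likelihood test), in each region with genotype, diet, their interaction and 4 surrogate variables from sva 3.50.0, and across both regions with 8 groups and no surrogate variables. Adjusted p-values are Benjamini-Hochberg values over all tested genes. The study describes RNA of both regions from the same animals, but the sources used here do not tie libraries to animals by number. The fit across regions therefore treats any libraries that share an animal as independent, and p-values measure the spread between these libraries. DESeq2 1.42.0, other normalizations, filters, GC correction and leaving out each library were tried as alternatives.

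The members and lists were chosen with earlier results of these data known. Levels by group, as each library of the group of 5 and as the lowest, median and highest of the groups of 6, are given for the 3 genes of lowest p in each diet comparison and interaction, any gene called within a region, the 5 genes with the largest called difference between regions in each direction and a core of 12 genes. Lpl falls under the largest differences between regions. Other genes are given by range. The transgene's own product and some list genes are not reported here. Promoter windows came from a RefSeq table of GRCm38.p6.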

Additional observations from a re-analysis of the deposited data

Results flagged for a closer look

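In 184 groups (23 genes in 8 groups), a single library stood apart from the rest in 11 by Dixon's ratio, the gap to the nearest library over the range of the group. Chance alone gives about 1 in 20 groups. In brainstem TG_SD, replicate 2 stood apart for 3 genes. It was highest for Acaa2 (31.6 CPM, others 20.1 to 24.3, ratio 0.641) and for Cpt1c (37.3 CPM, others 31.7 to 32.9, ratio 0.778), and lowest for Acox3 (39.5 CPM, others 43.4 to 44.4, ratio 0.79). In brainstem TG_HFD, replicate 8 was highest for Lpl (22.6 CPM, others 11.4 to 15.0, ratio 0.676), replicate 3 lowest for Acot7 (169 CPM, others 228 to 258, ratio 0.665) and replicate 1 lowest for Hadha (77.7 CPM, others 86.7 to 89.9, ratio 0.735). In brainstem WT_HFD, replicate 7 was highest for Cpt1a (62.5 CPM, others 49.6 to 53.5, ratio 0.701). In hippocampus WT_SD, replicate 3 was highest for Lpl (74.7 CPM, others 56.7 to 62.0, ratio 0.708), and replicate 7 was lowest for Pdk4 (7.67 CPM, others 9.96 to 11.1, ratio 0.666) and Acot1 (12.5 CPM, others 15.5 to 17.2, ratio 0.631). In hippocampus TG_HFD, replicate 8 was lowest for Acot1 (12.4 CPM, others 15.4 to 17.1, ratio 0.638).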

How the results depend on the processing

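Between the regions, the number of genes called ran from 29 to 35 over the alternatives, 35 of them without a fold threshold, and the direction of the counts held in each. Fabp3, at a log2 fold change of 0.298, was the gene added in every setting that gave 5 genes higher in hippocampus in place of 4. For HFD over SD and for both interactions, no alternative called any of the genes. For TG over WT on HFD in brainstem, the count was 1 in place of 0 with 0, 1 and 2 surrogate variables and with GC correction, and ran from 0 to 1 when single libraries were left out. The gene was Lpl each time, and the cause was not tested. Of the genes of lowest p, the log2 fold change of HFD over SD in WT brainstem turned in sign for Ucp2, to 0.0072 under a replicate block with 0 surrogate variables and to 0.0025 with only the 2 groups compared. It turned for Acaa2 to 0.0198 with 0 surrogate variables, 0.026 with 1, 0.0066 with 2, 0.012 with GC correction and 0 surrogate variables, and 0.024 with only the 2 groups compared. These checks covered 28 pairs of a gene and a comparison (18 genes), of which 1215 values over the alternatives kept direction and call. Beyond those pairs, with 0 surrogate variables the HFD over SD estimate of the tested genes turned in sign for 8 of 37 in WT brainstem, 13 of 37 in TG brainstem, 15 of 36 in WT hippocampus and 4 of 36 in TG hippocampus, and none was called in either fit. Same-numbered libraries correlated above 0.1 in 9 of 26 pairs in brainstem, 15 of 36 in hippocampus and 9 of 17 between regions. The median correlation between regions was 0.103 for same-numbered pairs and -0.022 for the 121 other pairs of the same genotype and diet. Within brainstem these medians were 0.029 and -0.025, and within hippocampus 0.063 and -0.041. Same-numbered libraries were thus somewhat more alike, but no label says what the numbers mean, so the main fits did not pair by them. A replicate block between the regions, fitted only on the 34 libraries with a same-numbered library of their genotype and diet in the other region, gave 31 genes called. Within each region a replicate block gave 0 called for HFD over SD.

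Depth limits the 2 genes with few counts, Ppara and Angptl4. WT_SD brainstem has 5 libraries. Bulk tissue gives no cell type, and the sources do not state how shared reads were counted.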
